A study of Mus musculus with 5 samples.

Results

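Olig2 sites that carried neither histone mark in either genotype were the Olig2 peaks of control tumours on chromosomes 1 to 19 that overlapped, by not even 1 bp, any peak of H3K27Ac or H3K4me3 from Olig2cKO or control tumours. They numbered 6571 of 38527 Olig2 peaks on these chromosomes, or 17.1% (95% interval 16.7 to 17.4), and of 39201 in the whole list. They are called unmarked sites here, and the other 31956 are called marked sites. They were selected on the peak positions of the 4 histone lists, so their lack of listed marks is a description and not a result, and "unmarked" means only that no peak was listed.

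Mouse brain tumours (gliomas) induced with PDGFB were examined 25 days after virus injection by ChIP-seq, which sequences the DNA that an antibody pulls down with its chromatin. PDGFB is a growth factor ligand that drives proliferation of glial precursors. Mice with Olig2cKO tumours had floxed Olig2 (Olig2 f/f), which mice with control tumours did not. Both genotypes carried floxed P53 (P53 f/f), a tumour suppressor, on a mixed C57Bl/6, 129Sv and CD-1 background. The 5 libraries, 1 of each kind, were H3K27Ac in Olig2cKO and control tumours, H3K4me3 in Olig2cKO and control tumours, and Olig2 in control tumours. The sources used here do not say how the floxed alleles were recombined or how many tumours went into a library. Each genotype had 1 library for each mark, so differences between genotypes have no replicate check and no p-value is given. The tumours were assayed as bulk tissue, so a mark carried by fewer cells and a weaker mark in every cell cannot be told apart.

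Olig2 is a basic helix-loop-helix transcription factor of the oligodendrocyte lineage that binds E-box motifs, can repress or activate genes, and is expressed in most diffuse gliomas. Acetylation of lysine 27 of histone H3 (H3K27Ac) accompanies enhancers and promoters in use, and trimethylation of lysine 4 (H3K4me3) is found above all at gene starts. A transcription factor can also be bound at sites without these marks, for example at poised, repressed or inaccessible chromatin, and weak binding can be listed by a peak caller without having a regulatory role. Peaks are given by position on mouse build mm9, counted from 1, and are not assigned to genes. The score of a peak is the authors' own, from their peak caller, and ranks peaks inside a list only. Intervals are exact binomial intervals at 95% and cover counting error alone, since neighbouring peaks are not independent and the read depth is unknown.

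Unmarked sites were among the weaker and narrower Olig2 peaks. The Olig2 score, which the choice of sites did not use, had a median of 65.7 at unmarked sites (25th to 75th percentile 56.0 to 88.4) and of 103.1 at marked sites (70.0 to 167.2). The lowest score was 50.0 in both sets, and the highest was 918.2 among unmarked and 2773 among marked sites. Every unmarked score thus lay inside the range of the marked ones. Of the unmarked sites, 1433 (21.8%, 20.8 to 22.8) had a score over the median of the list, against 17827 of the marked sites (55.8%, 55.2 to 56.3). A score of 200 or more was reached by 250 unmarked sites (3.81%) and by 5825 marked sites (18.2%). Width had a median of 606 bp at unmarked sites (488 to 741) and of 896 bp at marked sites (714 to 1187). Unlike the score, width enters the choice of sites, since a wider peak has more bases that can overlap a histone peak.

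The unmarked share of Olig2 peaks was lower in each higher score decile. It was 37.1% (35.6 to 38.7) in the lowest decile, with scores of 50.0 to 55.1, 16.9% (15.7 to 18.1) in decile 5, and 3.61% (3.04 to 4.25) in the highest, with scores from 250.5. The share was 54.1% (52.6 to 55.7) in the narrowest decile of width and 2.05% (1.63 to 2.55) in the widest. Because width enters the choice of sites, nothing is read from this order by width. Score and width were also crossed, in 5 classes of equal size each. Among the narrowest peaks, up to 617 bp wide, the unmarked share was 50.2% (48.7 to 51.9) in the lowest score class and 22.1% (16.0 to 29.2) in the highest. Among peaks of 766 to 924 bp it was 16.6% (14.4 to 18.97) and 10.4% (8.63 to 12.3). Set against the median score of their own width decile, 43.95% of unmarked sites lay above it, beside 21.8% over the median of the whole list. When each Olig2 peak was replaced by the 200 bp at its middle, which gives every peak the same width, 7071 peaks were unmarked (18.4%, 18.0 to 18.7), with 38.5% in the lowest and 4.41% in the highest score decile.

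**Figure D1:**
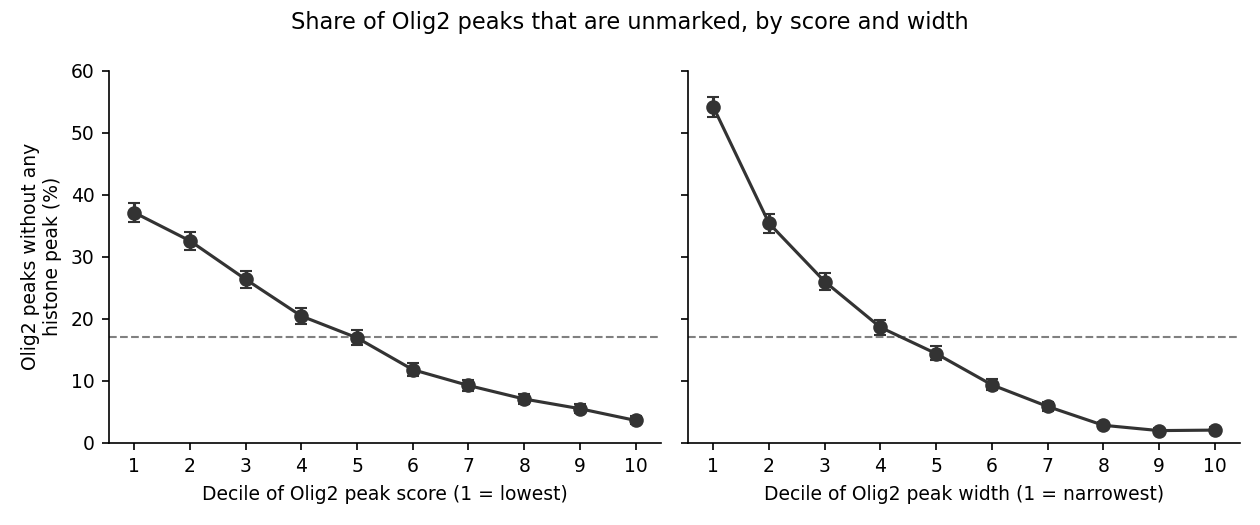
Share of the 38527 Olig2 peaks that overlapped no histone peak (%, points with exact 95% binomial intervals) in each decile of Olig2 score (left) and of width (right), with the share over all peaks as a dashed line. The share is 37.1% in the lowest and 3.61% in the highest score decile, and 54.1% in the narrowest and 2.05% in the widest decile of width. Width enters the choice of sites, since a wider peak has more bases that can overlap a histone peak.

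The Olig2 score followed the number of histone lists that a peak overlapped. Median scores were 65.7 for the 6571 peaks in none of the 4 lists, 77.6 for 3373 peaks in 1 list, 86.1 for 8015 in 2, 98.0 for 4199 in 3 and 121.5 for 16369 in all 4. Median widths, which bear on the chance of an overlap, ran in the same order, 606, 710, 783, 869 and 1036 bp. The unmarked sites stand at the end of this series by the choice of sites. Scores were not compared within width classes here. H3K27Ac was missing from 11463 Olig2 peaks in Olig2cKO tumours and from 11971 in control tumours, and the unmarked sites made up 57.3% and 54.9% of these. H3K4me3 was missing from 16092 Olig2 peaks in Olig2cKO tumours and from 17106 in control tumours, of which 40.8% and 38.4% were unmarked sites.

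A small group of unmarked sites had strong Olig2 peaks. The highest decile of the whole list held 139 of them (2.11% of the unmarked sites), with a median width of 945 bp. The strongest lay at chr4:42955777-42957066, with a score of 918.2 and a width of 1290 bp. Its nearest H3K27Ac peaks were 4.51 kb away in Olig2cKO and 5.72 kb in control tumours, and its nearest H3K4me3 peaks were 5.76 and 4.52 kb away in the same order. Peaks of both marks thus lay 4.51 to 5.76 kb from this site in both genotypes, without overlapping it.

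The next strongest lay at chr6:147093484-147094474 (score 763.9, 991 bp), far from acetylation, with the nearest H3K27Ac peak 51.9 kb away in Olig2cKO and 52.1 kb in control tumours. H3K4me3 was 26.3 kb away in Olig2cKO tumours and 51.2 kb in control tumours. Next in score, chr16:93418334-93419145 (score 685.2, 812 bp), had H3K4me3 at 3.87 kb in Olig2cKO and 4.16 kb in control tumours but no H3K27Ac nearer than 29.3 and 29.0 kb. At chr5:147072155-147073092 (score 665.7, 938 bp) the nearest peaks of all 4 lists lay between 10.9 and 11.3 kb away. At chr4:43992407-43993254 (score 599.96, 848 bp) H3K4me3 began 1.58 kb away in Olig2cKO and 1.49 kb in control tumours. At chr2:32573471-32575095 (score 582.5, 1625 bp) all 4 lists had a peak within 2 kb, at 1.39 to 1.97 kb. The 6 strongest sites therefore ranged from the edge of marked chromatin to a stretch of over 50 kb without listed acetylation.

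Positions 7 to 20 by score, with scores of 460.3 to 581.1, showed the same range. H3K4me3 lay within 1.2 kb in both genotypes at chr18:5159337-5160896 (0.757 kb in Olig2cKO and 0.817 kb in control tumours) and at chr5:64894521-64895496 (0.927 and 1.19 kb), while H3K27Ac there was 8.46 to 17.0 kb away. H3K4me3 was nearest in control tumours, with 1.46 kb in Olig2cKO and 0.514 kb in control tumours, at chr11:97437678-97438525. It was also nearer in control tumours, at 11.7 and 2.58 kb, at chr6:136114907-136116091. There H3K27Ac was nearer in Olig2cKO tumours, at 3.25 kb against 6.30 kb in control tumours. H3K27Ac was also nearer in Olig2cKO tumours, with 0.419 kb against 6.25 kb in control tumours, at chr11:117332870-117333381. The same held at chr11:49751207-49753137, with 4.60 kb in Olig2cKO and 18.4 kb in control tumours, and at chr15:25690810-25693589, with 3.94 and 8.23 kb. Both of these also had H3K4me3 at 2.58 to 4.02 kb in both genotypes. The Olig2cKO list is the longer one for both marks, and a longer list brings its peaks nearer to any site.

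Wide or remote sites completed the 20 strongest. The widest of them, chr19:5844947-5847874 (2928 bp), had its nearest histone peaks 7.10 to 8.35 kb away, and chr16:91233281-91234578 had H3K27Ac at 7.62 kb in Olig2cKO and 6.01 kb in control tumours. No peak of any list lay within 14 kb of chr8:40353982-40355140, chr3:5860497-5860899, chr2:112050049-112051247, chr2:93092261-93093097 or chr12:13136158-13137050. Of these, chr3:5860497-5860899 was the narrowest of the 20 at 403 bp and the most remote, with the nearest peaks of all 4 lists 89.2 to 89.4 kb away. Of the 20 sites, 11 had a histone peak within 5 kb, 8 had H3K4me3 there in both genotypes, and 3 had H3K27Ac there in both genotypes. A histone peak lay within 5 kb of 40.3% of all unmarked sites. H3K4me3 lay there in both genotypes at 16.8% of unmarked sites and 60.9% of all Olig2 peaks. For H3K27Ac these shares were 20.7% and 72.1%.

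Most unmarked sites had a listed histone peak within 25 kb, but they lay farther from the marks than Olig2 peaks in general. The nearest peak of any histone list was a median of 6.8 kb away, edge to edge (25th to 75th percentile 2.8 to 15.4 kb). A histone peak lay within 1 kb of 605 sites (9.21%, 8.52 to 9.93), within 5 kb of 2649 (40.3%, 39.1 to 41.5) and within 25 kb of 5661 (86.2%, 85.3 to 87.0). Marked sites overlap a histone peak by definition, so these shares are lower than over all Olig2 peaks by the choice of sites. H3K27Ac of neither genotype lay within 25 kb of 19.8% of unmarked sites, beside 4.66% of all Olig2 peaks. Shares at positions outside Olig2 peaks were not computed. The median distance was 10.1 kb to H3K27Ac in Olig2cKO tumours and 12.2 kb in control tumours, and 13.7 and 16.6 kb to H3K4me3. The lists differ in length, and a longer list brings its peaks nearer to any site, so the order of these medians is a description of the lists. Measured from middle to middle, 32.4% of the sites had a histone peak within 5 kb, and 22.8% had one of the upper 50% of each histone list by score.

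**Figure D2:**
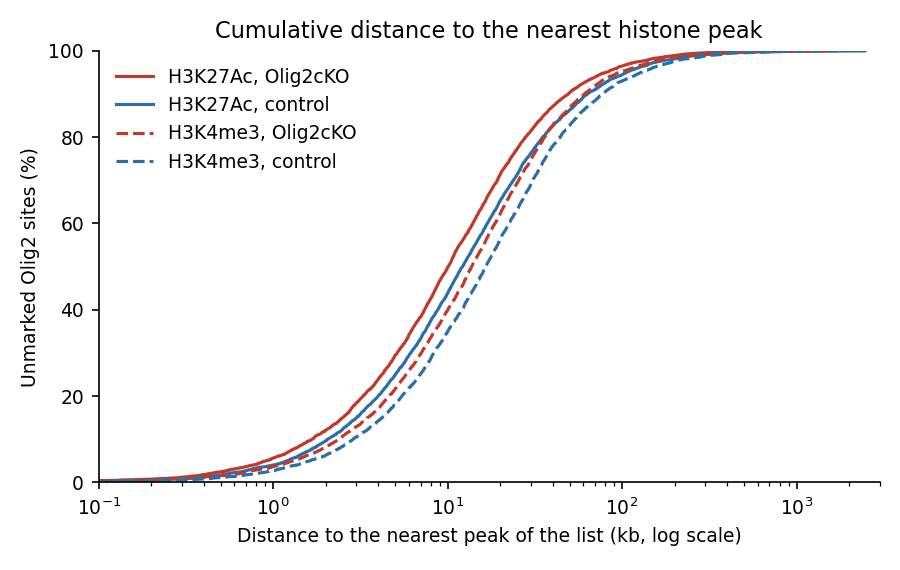
Cumulative share of the 6571 unmarked Olig2 sites (%) against the distance to the nearest peak of each histone list (kb, log scale, solid lines H3K27Ac, dashed lines H3K4me3). The curves run in the order of list length within each mark, and their medians are 10.1 kb (H3K27Ac, Olig2cKO), 12.2 kb (H3K27Ac, control), 13.7 kb (H3K4me3, Olig2cKO) and 16.6 kb (H3K4me3, control).

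Beyond the first kilobases, the surroundings of unmarked sites held more listed histone peaks than the chromosomes as a whole. At 20 kb from the middle of the site, 7.97% of positions were covered by H3K27Ac peaks in Olig2cKO and 6.92% in control tumours, where the lists covered 4.85% and 4.00% of chromosomes 1 to 19. At 100 kb these values were still 7.35% and 6.37%. For H3K4me3 they were 5.28% and 4.31% at 20 kb, beside 3.03% and 2.45% of the chromosomes. Coverage at the middle was 0 by the choice of sites. It reached the value of the chromosomes between 2 and 3 kb away for H3K27Ac, with 4.13% and 5.37% in Olig2cKO tumours, and showed no raised shoulder there. For comparison, Olig2 sites acetylated in both genotypes without H3K4me3 had H3K27Ac over 9.83% of positions at 20 kb in Olig2cKO tumours and 8.45% in control tumours. The chromosome values are shares of the full mm9 length, including any sequence where no peak could be listed. For H3K27Ac the higher values are not particular to unmarked sites, since these acetylated sites had still higher ones at 20 kb. Coverage around all Olig2 peaks was not computed.

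**Figure D3:**
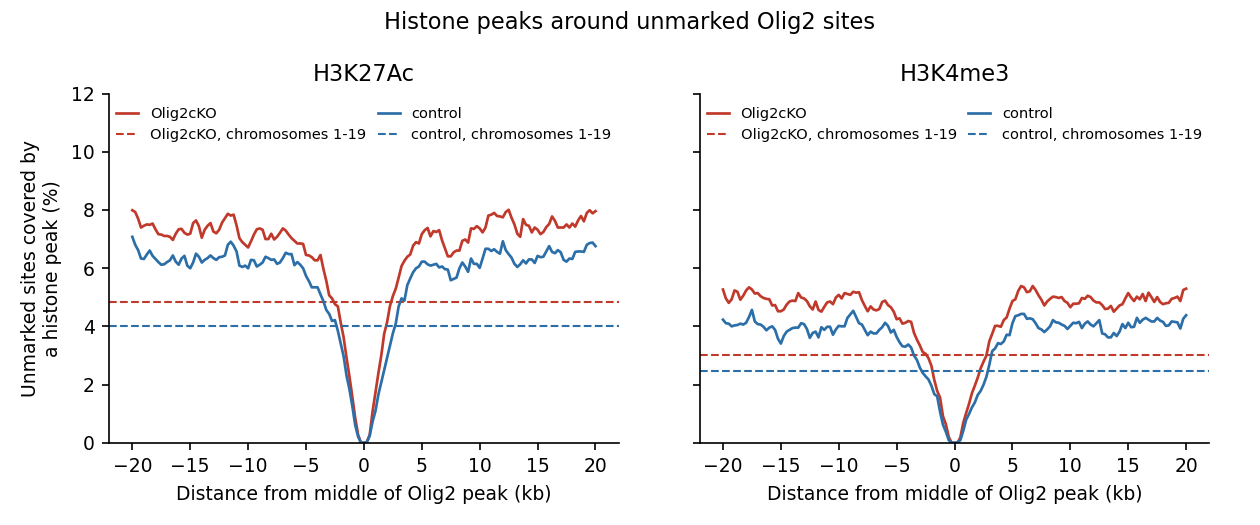
Share of the 6571 unmarked sites (%) that a histone peak covered at each distance from the middle of the Olig2 peak (kb), for H3K27Ac (left) and H3K4me3 (right). Dashed lines give the share of the full length of chromosomes 1 to 19 that each list covered. Coverage is 0 at the middle by the choice of sites and stands above the dashed lines from about 3 kb outward, for example 7.97% against 4.85% for H3K27Ac in Olig2cKO tumours at 20 kb.

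Within 5 kb of unmarked sites H3K27Ac was listed more often than H3K4me3, at 33.6% (32.5 to 34.8) and 22.9% (21.9 to 24.0) of the sites in either genotype, beside 84.4% and 71.3% of all Olig2 peaks. The H3K27Ac lists cover more of the chromosomes than the H3K4me3 lists do, so this order is a description of the lists. Within 5 kb, 1068 sites (16.3%, 15.4 to 17.2) had peaks of both marks in either genotype, 1142 (17.4%, 16.5 to 18.3) had H3K27Ac without H3K4me3, 439 (6.68%, 6.09 to 7.31) had H3K4me3 without H3K27Ac, and 3922 (59.7%, 58.5 to 60.9) had neither. Histone peaks flanked 53 sites (0.807%, 0.605 to 1.05) on both sides within 2 kb and 468 (7.12%, 6.51 to 7.77) within 5 kb. A 1-sided neighbour within 5 kb was found at 2181 sites (33.2%, 32.0 to 34.3). Neighbours by side were not counted over all Olig2 peaks, so nothing is read from these counts. The histone peaks within 5 kb of unmarked sites were somewhat weaker than their lists. For H3K27Ac scores the medians were 158.3 near the sites and 167.7 in the list in Olig2cKO tumours, and 162.2 and 176.2 in control tumours. For H3K4me3 they were 287.7 and 327.6 in Olig2cKO tumours, and 293.6 and 344.3 in control tumours. These neighbouring peaks carried an Olig2 peak of their own less often than their lists did, at 32.4% (30.5 to 34.4) of 2253 H3K27Ac peaks against 42.7% (42.3 to 43.0) of the list in Olig2cKO tumours, and at 38.0% (35.8 to 40.2) of 1841 against 49.8% (49.3 to 50.2) in control tumours. The H3K27Ac peaks near the sites were slightly wider than their lists, with medians of 1555 bp near the sites and 1438 bp in the list in Olig2cKO tumours, and 1587 and 1478 bp in control tumours. Peak score and width were not matched in these counts. The neighbouring peaks come from the lists that chose the sites, and each lies beside an Olig2 peak that it does not overlap. Nothing is therefore read from their differences from the whole lists.

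Stronger unmarked sites lay somewhat nearer to histone peaks. The share with a histone peak within 5 kb was 38.2% (35.8 to 40.6) in the lowest of 4 score classes of unmarked sites, 39.4% in both middle classes, and 44.3% (41.9 to 46.8) in the highest. Among the 139 sites in the highest decile of the whole list it was 54.0% (45.3 to 62.4). H3K4me3 was within 5 kb of 21.3% (19.3 to 23.4) of sites in the lowest and 26.7% (24.5 to 28.9) in the highest class, and H3K27Ac of 32.9% (30.6 to 35.2) and 36.1% (33.8 to 38.5). Median width also differed between these classes, at 508 and 741 bp.

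The genotypes were compared by asking where a mark lay near an unmarked site in 1 genotype alone. H3K27Ac lay within 5 kb in Olig2cKO tumours alone at 573 unmarked sites (8.72%, 8.05 to 9.43), in control tumours alone at 280 (4.26%, 3.79 to 4.78) and in both at 1357 (20.7%). Over all Olig2 peaks the same counts gave 7.27% for Olig2cKO alone and 5.00% for control alone. H3K4me3 lay within 5 kb in Olig2cKO tumours alone at 317 unmarked sites (4.82%, 4.32 to 5.37), in control tumours alone at 89 (1.35%, 1.09 to 1.66) and in both at 1101 (16.8%), beside 7.13% and 3.26% over all Olig2 peaks. The Olig2cKO list is the longer one for both marks. With the lists of each mark cut to equal length by score, H3K27Ac lay within 5 kb of 376 unmarked sites in Olig2cKO tumours alone and of 393 in control tumours alone. The Olig2cKO share of these sites was 48.9% (45.3 to 52.5), and over all Olig2 peaks it was 41.6% (40.2 to 43.0). With 1 library for each genotype, these intervals cannot say whether the genotypes differ. H3K4me3 lay within 5 kb of 228 unmarked sites in Olig2cKO tumours alone and of 125 in control tumours alone, an Olig2cKO share of 64.6% (59.4 to 69.6), beside 54.0% (52.4 to 55.6) over all Olig2 peaks. The unmarked sites are among all Olig2 peaks and were chosen on these same lists, so nothing is read from the differences between these shares.

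**Figure D4:**
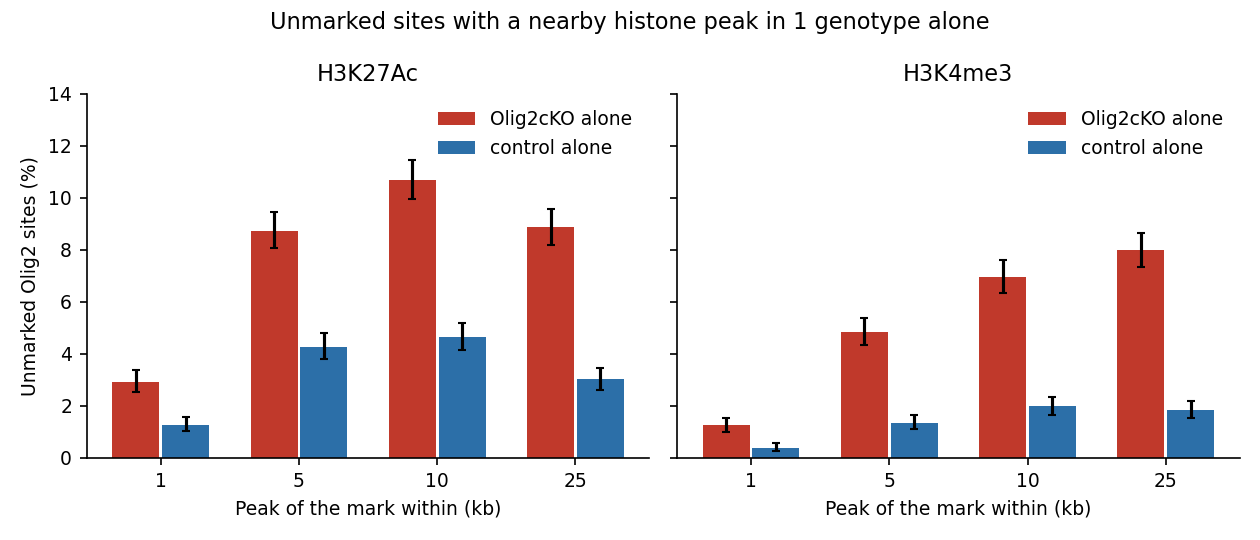
Share of the 6571 unmarked Olig2 sites (%, bars with exact 95% binomial intervals) that had a peak of H3K27Ac (left) or H3K4me3 (right) within 1, 5, 10 or 25 kb in Olig2cKO tumours alone or in control tumours alone, from whole lists of unequal length. The Olig2cKO bars are the higher ones at each distance, for example 8.72% and 4.26% for H3K27Ac at 5 kb, while at 5 kb, the distance also examined with lists of equal length, the H3K27Ac counts there are 376 and 393.

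The Olig2 sites most like the unmarked ones were those with H3K27Ac and no H3K4me3 in both genotypes (5393 sites, called distal acetylated sites here), and those unmarked in control tumours that had H3K27Ac in Olig2cKO tumours (1871 sites). Unmarked sites lay about as far from H3K4me3 as distal acetylated sites did. The nearest H3K4me3 peak of either genotype was a median of 13.0 kb from unmarked and 11.4 kb from distal acetylated sites, and lay within 5 kb of 22.9% (21.9 to 24.0) and 24.8% (23.6 to 25.9). At the sites acetylated in Olig2cKO tumours, which could overlap H3K4me3 in those tumours, the values were 7.04 kb and 44.6% (42.4 to 46.9). Over all Olig2 peaks, which include those on H3K4me3, the share was 71.3%. Unmarked and distal acetylated sites were both chosen for overlapping no H3K4me3 peak, so nothing is read from their similar distances. The 3 sets also differed in Olig2 score, with medians of 65.7 at unmarked sites, 90.6 at distal acetylated sites and 81.9 at the sites acetylated in Olig2cKO tumours. Their median widths were 606, 795 and 723 bp. Scores over the median of the list were found at 21.8% of unmarked sites and at 47.8% (46.4 to 49.1) of distal acetylated sites, a difference of -26.0 percentage points. Within width deciles the difference was -7.39 points. Scores of 200 or more were found at 3.81% (3.35 to 4.30) of unmarked sites, 13.0% (12.1 to 13.9) of distal acetylated sites and 12.8% (11.3 to 14.4) of the sites acetylated in Olig2cKO tumours.

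Most unmarked sites had no other unmarked site within 12500 bp. The next Olig2 peak was a median of 16.6 kb from unmarked and 13.6 kb from marked sites, and lay within 12500 bp of 40.3% (39.1 to 41.5) of unmarked sites, beside 45.4% over all Olig2 peaks. That next peak was itself unmarked at 1323 unmarked sites (20.1%, 19.2 to 21.1) and at 5103 marked sites (16.0%, 15.6 to 16.4), beside 16.7% over all Olig2 peaks. Where the next Olig2 peak lay within 12500 bp, it was unmarked at 542 of 2646 unmarked sites (20.5%, 18.96 to 22.1) and at 2149 of 14849 marked sites (14.5%, 13.9 to 15.0). Where it lay beyond 50 kb, the shares were 22.4% (19.9 to 25.0) and 20.4% (19.1 to 21.8). These shares by distance were not computed over all Olig2 peaks. A site and its next peak were classed by the same 4 histone lists, so nothing is read from these differences. Chained at gaps of at most 12500 bp, 5915 unmarked sites stood alone, 286 groups held 2 sites, 21 held 3, 4 held 4 and 1 held 5. The 5 longest groups of at least 3 sites lay at chr3:88007156-88037009 (4 sites), chr15:54928590-54957697 (4 sites), chr4:124333252-124360125 (5 sites), chr11:120902291-120928483 (3 sites) and chr13:71387390-71411585 (3 sites). The group on chromosome 3 was 29.9 kb long and held neither a histone peak nor a marked Olig2 peak. It includes the widest unmarked site, chr3:88007156-88012434 (5279 bp, score 107.5), where H3K4me3 began 2.37 kb away in Olig2cKO and 2.40 kb in control tumours.

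The other 4 of the 5 widest unmarked sites were 3535 to 5209 bp wide and had scores of 62.0 to 163.4. They lay at chr15:85507730-85512938, chr2:165708382-165713199, chr11:69221943-69226009 and chr1:137054590-137058124. Their widths stood far above the median of 606 bp. Of the 4 scores, 3 were above the 75th percentile of unmarked sites (88.4), and the score of 62.0 was below their median of 65.7. At chr1:137054590-137058124 H3K4me3 was within 2 kb in both genotypes, and at the other 3 no histone peak lay within 6 kb.

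A minority of unmarked sites was remote from listed histone peaks, which marked sites cannot be by definition. The nearest peak of any list was more than 25 kb and up to 100 kb away at 796 sites (12.1%) and beyond 100 kb at 114 (1.73%, 1.43 to 2.08). These 114 sites had a median score of 62.1 and were narrow (median 473 bp), and their next Olig2 peak was a median of 182.6 kb away. The most remote was chr2:87561817-87562106 (290 bp, score 86.8), with the nearest histone peak 1701 kb away. It was followed by chr7:92908739-92909024 (979.8 kb, score 125.4), chr17:61431649-61432038 (970.4 kb), chr12:116498750-116499251 (785.7 kb) and chr4:72966250-72966649 (691.7 kb), the last 3 with scores of 51.1 to 55.1. At the sites on chromosomes 7, 12 and 4 the distances to the nearest peaks of all 4 lists were within 500 bp of each other. The same held at 807 of all unmarked sites (12.3%, 11.5 to 13.1), at 16 of the 114 most remote, and at 19 of the 139 strongest. This was not counted over all Olig2 peaks.

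Unmarked sites were found on all 19 chromosomes in similar proportion. The unmarked share of Olig2 peaks ran between 14.1% (12.2 to 16.3) on chromosome 19 and 18.0% (16.2 to 20.0) on chromosome 17, and chromosome 19 was the only one whose interval excluded the 17.1% over all peaks. Per length, unmarked sites were densest on chromosome 11 with 3.73 per Mb and sparsest on chromosome 3 with 2.01 per Mb, and all Olig2 peaks were also densest on chromosome 11, with 22.2 per Mb. In windows of 1 Mb the unmarked share is given by the number of histone regions as a description, with nothing read from it, since the regions come from the 4 lists that chose the sites. It was 28.3% (24.7 to 32.1) of Olig2 peaks in the 259 windows with up to 10 merged histone regions, 19.2% (18.4 to 20.1) in windows with 21 to 40, and 14.4% (13.9 to 15.0) in the 443 windows with over 60. The window with most unmarked sites, chr2:93000001-94000000, held 17 among 43 Olig2 peaks and 63 histone regions. The next were chr2:127000001-128000000, chr9:107000001-108000000 and chr11:118000001-119000000 with 13 each among 32, 45 and 40 Olig2 peaks, and chr2:32000001-33000000 with 12 among 51. Of 1920 windows with an unmarked site, 42 held no marked Olig2 peak.

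**Figure D5:**
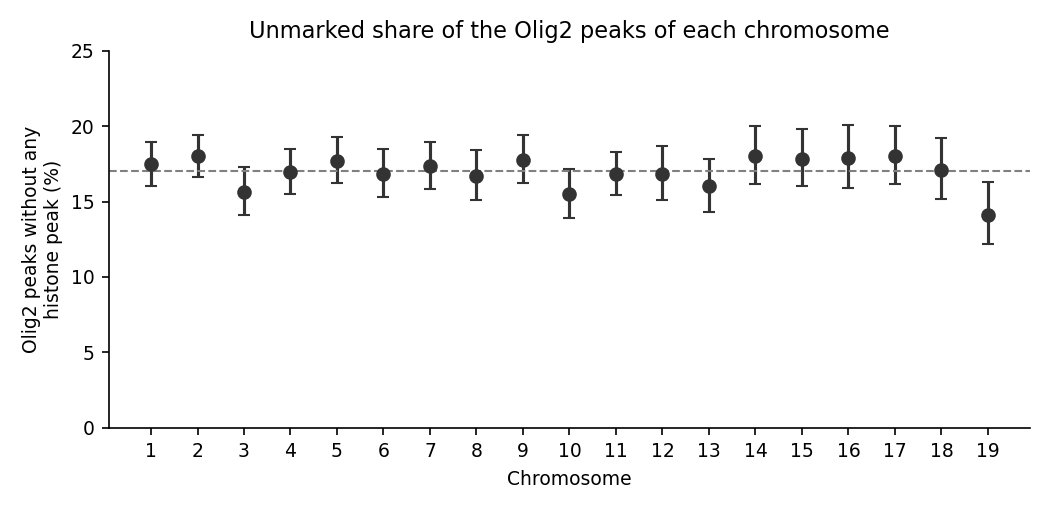
Unmarked share of the Olig2 peaks of each of 19 chromosomes (%, points with exact 95% binomial intervals) and the share over all of them as a dashed line. The shares run between 14.1% on chromosome 19 and 18.0% on chromosome 17.

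Some sites were called unmarked by a few bases. Just inside the rule, the nearest histone peak lay 2 bp from chr11:106279831-106280439 (score 152.4), 5 bp from chr8:124397395-124398568 (218.9), 6 bp from chr1:137002473-137003137 (191.1) and from chr2:77139252-77139649 (55.6), and 10 bp from chr11:16198375-16199174 (71.3). Just outside it, 1 bp overlapped at chr5:23536239-23537087 (score 84.8) and chr6:83405957-83407043 (53.2), 5 bp at chr5:149597770-149598525 (94.3) and chr8:125760749-125761355 (51.8), and 6 bp at chr19:6931018-6931541 (179.4). At each of these 5 peaks 1 of the 4 lists made the overlap, and it was an H3K4me3 list every time. Fewer than 100 bp separated 54 unmarked sites from a histone peak, and 80 marked sites overlapped by fewer than 100 bp.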

How the data were processed

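ChIP-seq peak lists of 5 libraries were used, 1 for each combination of antibody and genotype. Reads were handled with CASAVA, Bowtie2 and MACS on build mm9, per the submitters' processing notes; versions, settings and the use of an input library are not given in the sources used here. The deposited lists give a start, an end and a score for each peak. The lowest deposited score was 50.0 in the Olig2 list, where −10 times the base 10 logarithm of a p-value of 1e-05 stands, but the score's scale is not stated. Libraries were not scaled to each other, and the number of reads is unknown.

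No peak of the 5 lists lay beyond its mm9 chromosome (lengths from GenomeInfoDb 1.38.1). Overlaps and distances were computed with Python 3.11.15, numpy 2.4.6 and pandas 2.3.3. An overlap needed 1 bp. The 6571 sites were also counted with bedtools 2.31.1, with the same number. On simulated lists made from the Olig2 peaks, all 4481 sites planted without a partner were recovered at their exact distance. Intervals came from scipy 1.17.1, and those of differences from statsmodels 0.14.6. Figures were drawn with matplotlib 3.10.9. Score and width classes hold equal numbers of the 38527 peaks. Histone regions are the peaks of the 4 lists merged where they overlap, assigned to 1 Mb windows by their middle.

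Members, named regions and alternatives were chosen with earlier results of these data known. Named regions are the 20 sites with the highest score, the 5 widest, the 5 most remote, the 5 longest groups, the 5 windows with most sites, and the 5 peaks nearest to either side of the rule. Sequence content and gene lists had been planned and were not run, since a genome sequence and gene positions of mm9 were not used here. A further part of the genotype, shared by all groups, is not reported here.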

Additional observations from a re-analysis of the deposited data

Results flagged for a closer look

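Chromosome X lies outside the choice of sites. It held 132 unmarked Olig2 sites among its 672 Olig2 peaks (19.6%, 16.7 to 22.9), an interval that includes the 17.1% on chromosomes 1 to 19. It is listed because the comparisons did not use this chromosome and its count was above the listing limit of 3. That limit says nothing about the share. Unmarked sites on chromosome X had a median score of 66.3 and were 522.5 bp wide at the median. Their nearest histone peak was a median of 13983 bp away, and there were 0.792 of them per Mb.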

How the results depend on the processing

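The count of 6571 unmarked sites was within 1.5 times of that under 11 other settings (5966 to 9107), among them each histone list left out in turn. It was 1433 in the upper 50% of the Olig2 list by score, 12355 with the upper 50% of each histone list, and 3922 when a peak within 5 kb counted as a mark. The share of unmarked sites over the median score (21.8%) was 43.95% within width deciles, 28.5% with the upper 50% of each histone list, 33.4% within the upper 50% of the Olig2 list and 23.7% with the middle 200 bp, chosen after seeing the data. The share with a histone peak within 5 kb (40.3%) was 32.4% from middle to middle, 41.9% in the upper 50% of the sites by score and 22.8% with the upper 50% of each histone list. Among sites with H3K27Ac near in 1 genotype alone, the Olig2cKO share (67.2% within 5 kb) was 74.6% within 25 kb and 48.9% with lists of equal length, on the other side of 50% with an interval (45.3 to 52.5) that includes it; for H3K4me3 (78.1%) it was 64.6% with equal lists. The share of sites within 12500 bp of another (9.98%) was 3.01% at 5 kb, 18.3% at 25 kb and 6.575% in the upper 50% by score. The difference from distal acetylated sites (-26.0 points) was -12.7 in the upper 50% of the list and -7.39 within width deciles. Where no value above shows it, the cause was not tested. No paired analysis was possible because each group had 1 library. Depth is unknown, so a peak too weak to be listed cannot be told from an absent mark.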
